A study of Mus musculus with 6 samples.

Results

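The 8 loci described here are those of the mouse pluripotency factors Prdm14, Sox2, Klf4, Dppa3, Nanog, Zfp42, Esrrb and Pou5f1. Each locus is a fixed window of the mm9 genome around the gene, and its members are the cytosines with a methylation level inside that window. They number 372 cytosines listed in at least 1 library, of 733073 on the autosomes, and 177 listed in all 6 libraries, of 369208. E14 cells, an established mouse embryonic stem cell line, carried short hairpin RNAs (shRNAs) in 6 groups: against Tet1 with Tet2, against Dnmt1, against Dnmt3a, against Dnmt3b, against Dnmt3a with Dnmt3b (the double knockdown), and a control shRNA. Methylation was read by reduced representation bisulfite sequencing (RRBS), which cuts DNA with MspI at CCGG and so samples mostly CpG-rich sequence. Each group is 1 library, so differences are between single libraries, have no replicate error and carry no p-value. An shRNA lowers its target and does not delete it, and neither target levels nor expression of the 8 genes were measured in these libraries.

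POU5F1 (OCT4), SOX2 and NANOG form the core transcription factor circuit of pluripotent cells. KLF4, ESRRB and PRDM14 hold mouse stem cells in the naive state, and PRDM14 does so partly by repressing the de novo methyltransferases. ZFP42 (REX1) is a zinc finger protein used as a marker of that state, and DPPA3 (STELLA) protects maternal methylation in the zygote. DNMT1 copies methylation at replication, DNMT3A and DNMT3B set it de novo, and TET1 and TET2 oxidise it. Promoters of active genes, above all CpG-rich ones, are usually free of methylation, while many regulatory elements carry intermediate levels.

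The promoters of Sox2, Klf4 and Nanog are shown because they differ in what this assay reads of them. Sequences were available for 6 of the 8 genes (9 promoters, RefSeq, build GRCm38.p6), and the 250 bases before the start are printed 5′ to 3′ along the gene. Capitals in the Sox2 and Klf4 lines mark CpGs with a listed level, placed on mm9 by strand, 5-base context and spacing, and capitals in the Nanog line mark every CpG, none of which could be matched to a listed cytosine. The Sox2 stretch is chr3:34649745-34649994 (plus strand), the Klf4 stretch chr4:55532476-55532725 (minus strand) and the Nanog stretch chr6:122707239-122707488 (plus strand).
Sox2 promoter, upstream bases: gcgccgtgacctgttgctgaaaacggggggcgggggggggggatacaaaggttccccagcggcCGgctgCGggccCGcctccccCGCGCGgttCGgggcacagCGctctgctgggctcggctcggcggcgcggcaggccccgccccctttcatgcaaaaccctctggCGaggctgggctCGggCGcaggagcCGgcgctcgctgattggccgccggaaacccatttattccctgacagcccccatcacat
Klf4 promoter, upstream bases: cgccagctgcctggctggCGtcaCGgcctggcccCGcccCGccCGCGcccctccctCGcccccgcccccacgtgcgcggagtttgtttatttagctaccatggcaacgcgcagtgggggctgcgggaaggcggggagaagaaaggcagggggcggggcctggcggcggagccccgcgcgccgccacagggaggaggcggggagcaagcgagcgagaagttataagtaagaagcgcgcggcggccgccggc
Nanog promoter, upstream bases: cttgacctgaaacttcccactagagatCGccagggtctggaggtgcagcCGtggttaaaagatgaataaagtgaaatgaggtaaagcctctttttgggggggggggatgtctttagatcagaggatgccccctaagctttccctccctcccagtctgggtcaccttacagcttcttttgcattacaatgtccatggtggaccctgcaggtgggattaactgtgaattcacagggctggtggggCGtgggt
The Sox2 stretch held 27 CpGs, 12 of them listed, and the Klf4 stretch held 32, 7 of them listed. The Nanog stretch held 3 CpGs. The motif CCGG, which reads the same on both strands, occurred 3 times in the 300-base promoters of Sox2 and of Klf4 and 0 times in that of Nanog, while 52.8% of 32851 RefSeq promoters of that length held it. Prdm14 and Dppa3 had no promoter entry. The promoters of Nanog, Esrrb and Pou5f1 could not be placed, so distances from a start are given for Sox2, Klf4 and Zfp42 only, and other positions are given without an annotation.

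The 8 loci were mostly unmethylated, and the order of the libraries was set by a minority of cytosines. Over the 177 shared cytosines the mean level was 8.99% in the Tet1 and Tet2 library, 1.66% in Dnmt1, 4.93% in Dnmt3a, 9.55% in Dnmt3b, 5.54% in the double Dnmt3a and Dnmt3b library and 7.63% in control. The Dnmt1 library was thus the lowest and the Dnmt3b library the highest. All autosomal cytosines listed in all 6 libraries averaged 27.1% in Tet1 and Tet2, 5.38% in Dnmt1, 21.6% in Dnmt3a, 26.1% in Dnmt3b, 22.7% in the double library and 25.7% in control. At the loci the differences from control, in percentage points, were 1.37 for Tet1 and Tet2, -5.96 for Dnmt1, -2.69 for Dnmt3a, 1.92 for Dnmt3b and -2.09 for the double knockdown. Over the autosomes they were 1.40 for Tet1 and Tet2, -20.3 for Dnmt1, -4.02 for Dnmt3a, 0.446 for Dnmt3b and -2.94 for the double knockdown. By the median over the 6 libraries, 162 of the 177 cytosines (91.5%) were low (below 20%), 11 (6.21%) intermediate and 4 (2.26%) high (above 80%), while 68.4% of all autosomal cytosines were low. The Dnmt3b value rested on Esrrb, since without that window it was 0.456 points, and the Tet1 and Tet2 value was then 0.827 points.

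**Figure D1:**
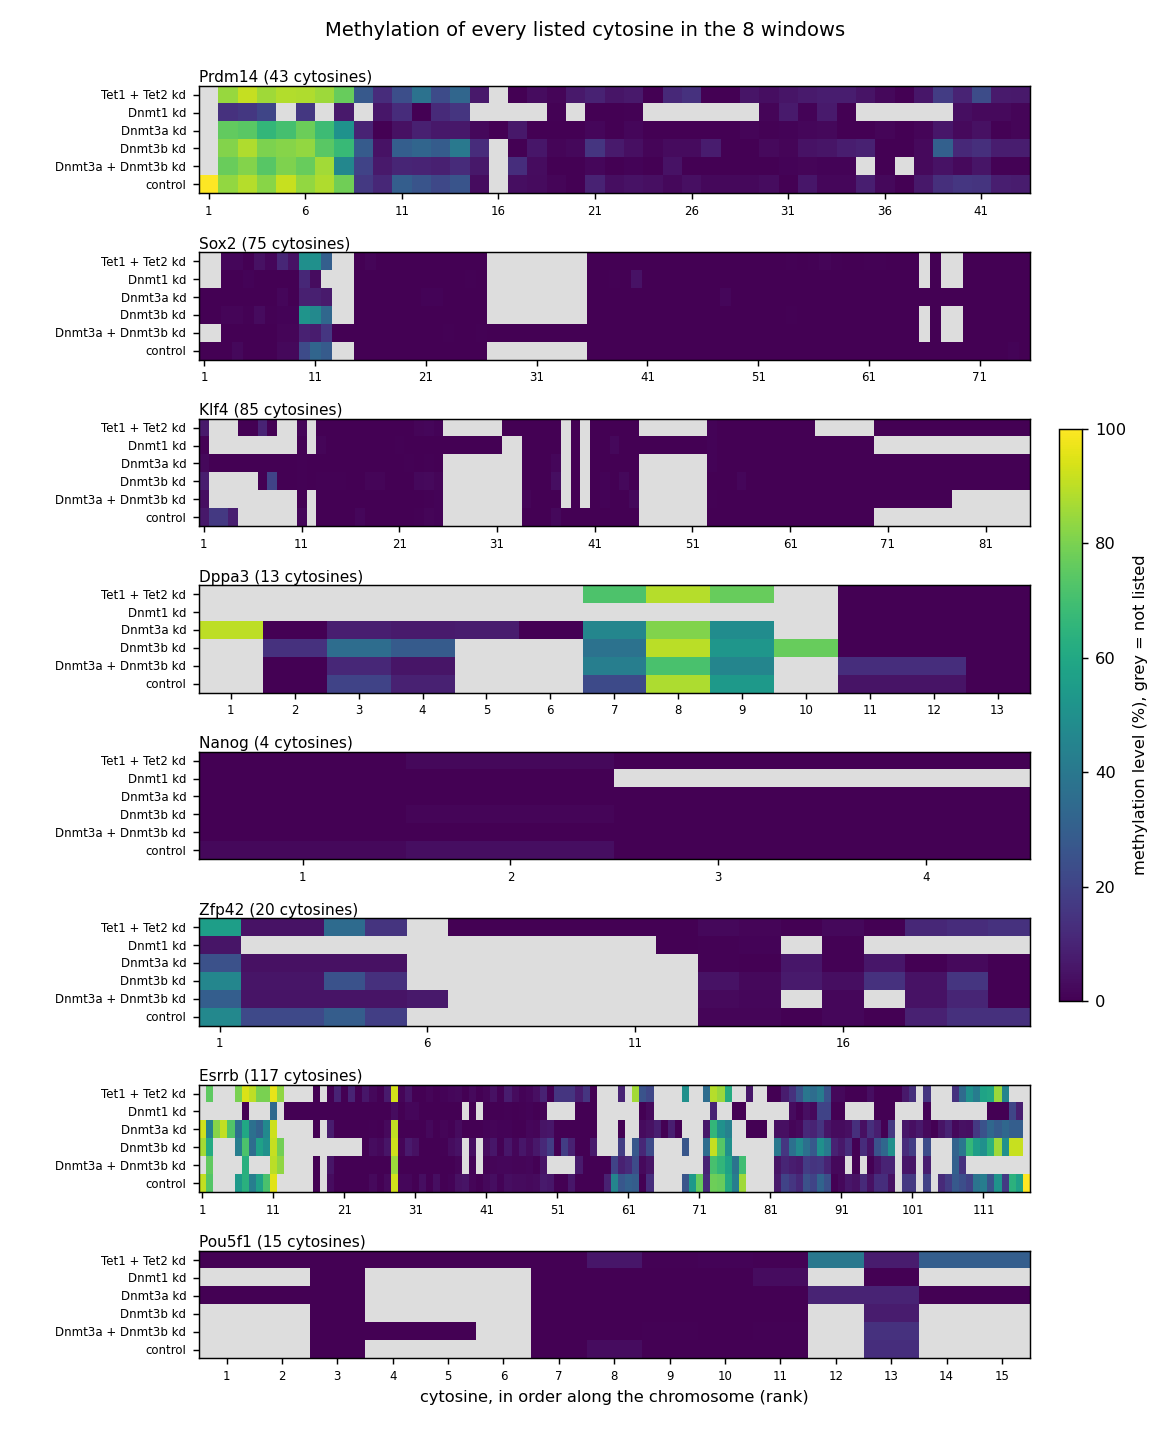
Methylation level (colour, %) of each of the 372 listed cytosines in the 6 libraries, in order along each window, with grey where a library lists none. Dark blocks fill most of the windows of Sox2, Klf4, Nanog and Pou5f1, apart from a short lighter run at Sox2, while light and green runs stand in those of Prdm14, Dppa3, Zfp42 and Esrrb and are dark or grey in the Dnmt1 row. The last cytosines of Pou5f1 are lighter in the Tet1 and Tet2 row.

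The map of all cytosines shows how unevenly the loci were sampled. Klf4 had 85 listed cytosines in 15 kb and Sox2 75 in 20 kb, whereas Nanog had 4 in 18 kb, all of them between 122652882 and 122653025 on chromosome 6. Esrrb had 117 in a window of 171 kb, Prdm14 43, Zfp42 20, Pou5f1 15 and Dppa3 13. The Dnmt1 library listed the fewest, 215, and the others 264 to 313, so several patches below lack cytosines in that library. Low cytosines had a median of 7 other listed cytosines within 100 bp, and intermediate ones 2. Over all autosomal cytosines these medians were 11 and 2, so the contrast is not particular to the loci.

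Over the cytosines shared by all 6 libraries, Prdm14 had the highest mean level in every library, and Esrrb the second highest. Prdm14 (23 cytosines) averaged 28.7% in Tet1 and Tet2, 6.46% in Dnmt1, 16.9% in Dnmt3a, 27.4% in Dnmt3b, 18.3% in the double library and 26.6% in control. Esrrb (44) averaged 16.1% in Tet1 and Tet2, 2.45% in Dnmt1, 9.50% in Dnmt3a, 19.5% in Dnmt3b, 10.3% in the double library and 13.1% in control. Zfp42, with 4 shared cytosines, averaged 15.4% in Tet1 and Tet2, 1.85% in Dnmt1, 6.43% in Dnmt3a, 14.2% in Dnmt3b, 8.93% in the double library and 12.8% in control. These means hide a wide spread along each locus, as the SD over cytosines in control was 31.8 points at Prdm14, 23.9 at Esrrb and 22.6 at Zfp42. That spread lies along each locus and is not an error of its mean, and whether the means of these 3 loci differ was not tested. In control the other 5 loci averaged 3.53% (Dppa3), 2.95% (Nanog), 2.31% (Pou5f1), 1.09% (Sox2) and 0.425% (Klf4), and their order changed between libraries. The order also turned with the cytosines used. Over those listed in the 5 libraries other than Dnmt1, Dppa3 (6 cytosines) stood above Prdm14 (39) in all 5, with 39.7% against 24.0% in Tet1 and Tet2 and 29.1% against 21.9% in control.

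**Figure D2:**
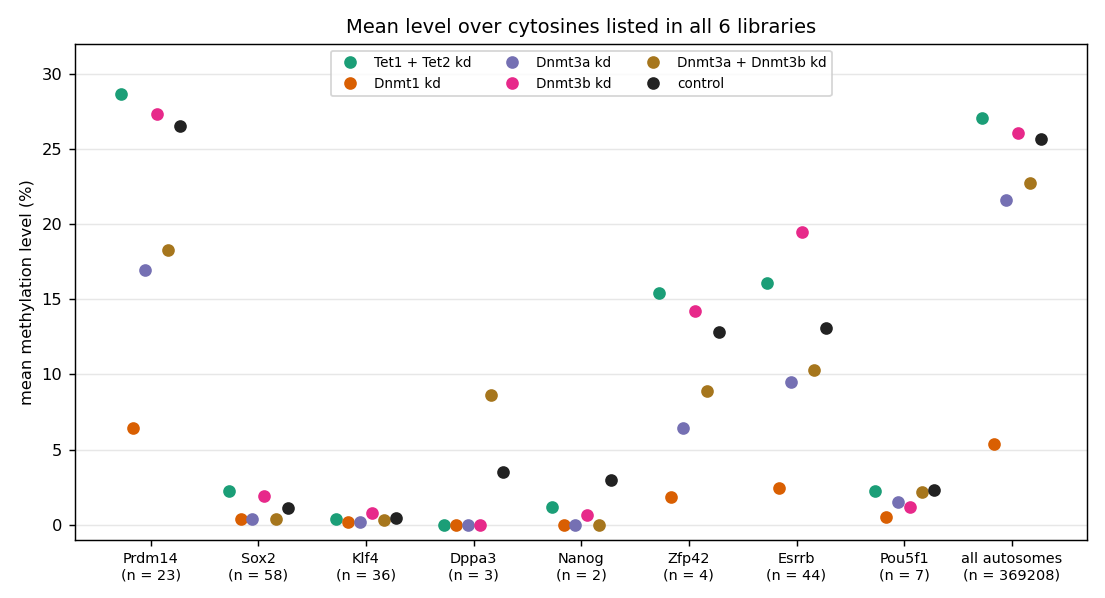
Mean methylation level (%) at each locus in each library, over the cytosines listed in all 6 libraries (n under each name), with all autosomal cytosines at the right. The Dnmt1 points lie at 6.46% or lower at every locus, and the Dnmt3a and double points lie below control at Prdm14, Zfp42 and Esrrb.

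At Pou5f1, which encodes the central factor of the circuit, the cytosines shared by all libraries were close to unmethylated. Its single patch of neighbouring cytosines (runs of at least 3, at most 100 bp apart), 35644995 to 35645134 on chromosome 17, read 1.56% in Tet1 and Tet2, 0.7% in Dnmt1, 0.12% in Dnmt3a, 0.12% in Dnmt3b, 0.2% in the double library and 0.64% in control. No Pou5f1 cytosine listed in control differed from it by 20 points. A cytosine at 35651543, outside that patch, read 7.7% in Tet1 and Tet2, 0% in Dnmt1, 10% in Dnmt3a, 7.7% in Dnmt3b, 14.3% in the double library and 13% in control. Its opposite strand at 35651542 was listed in the Tet1 and Tet2 library at 40% and in Dnmt3a at 10%, and in no other library. Its neighbours at 35651565 and 35651574 both read 30% in Tet1 and Tet2 and 0% in Dnmt3a, and were listed nowhere else, so none of these 3 can be set against control. These 4 cytosines fall outside the rule for named sites and were chosen after their values were seen.

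Sox2, which encodes the partner of POU5F1, was unmethylated at its start and partly methylated at 1 upstream patch. The 12 promoter cytosines capitalised above averaged 0.1% in Tet1 and Tet2, 0.0417% in Dnmt1, 0.15% in Dnmt3a, 0% in Dnmt3b, 0.0833% in the double library and 0% in control. All 36 control cytosines within 1 kb of the start read 0%, and the highest single value there in any library was 4.8%, in Dnmt1. Patches downstream, at 34549500 to 34549661 and 34549784 to 34550145, averaged at most 0.53% in any library, and the one at 34552957 to 34552997 at most 0.267%. A patch at 34541622 to 34541773 read 3.69% in Tet1 and Tet2, 0.129% in Dnmt1, 0.243% in Dnmt3a, 1.29% in Dnmt3b, 0.371% in the double library and 0.929% in control.

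The methylated Sox2 patch (34542966 to 34543086) lay at -5951 to -5831 bp from the start and held 3 cytosines, 2 on the plus strand and 1 on the minus strand. Its first cytosine read 49.7% in Tet1 and Tet2, 11.2% in Dnmt1, 8.7% in Dnmt3a, 51.6% in Dnmt3b, 9.1% in the double library and 23% in control. The second read 50% in Tet1 and Tet2, 3.3% in Dnmt1, 8.7% in Dnmt3a, 47.2% in Dnmt3b, 7.5% in the double library and 32.8% in control. The third, on the other strand, was not listed in Dnmt1 and read 30.4% in Tet1 and Tet2, 7.1% in Dnmt3a, 33.3% in Dnmt3b, 15.8% in the double library and 28.6% in control. At all 3 cytosines Tet1 and Tet2 and Dnmt3b were above control, while Dnmt3a and the double library were below it. The patch means differed from control by 15.2 points for Tet1 and Tet2, -20.0 for Dnmt3a, 15.9 for Dnmt3b and -17.3 for the double knockdown, and by -20.7 for Dnmt1 over its 2 listed cytosines. All Sox2 cytosines past 20 points lay in this patch.

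**Figure D3:**
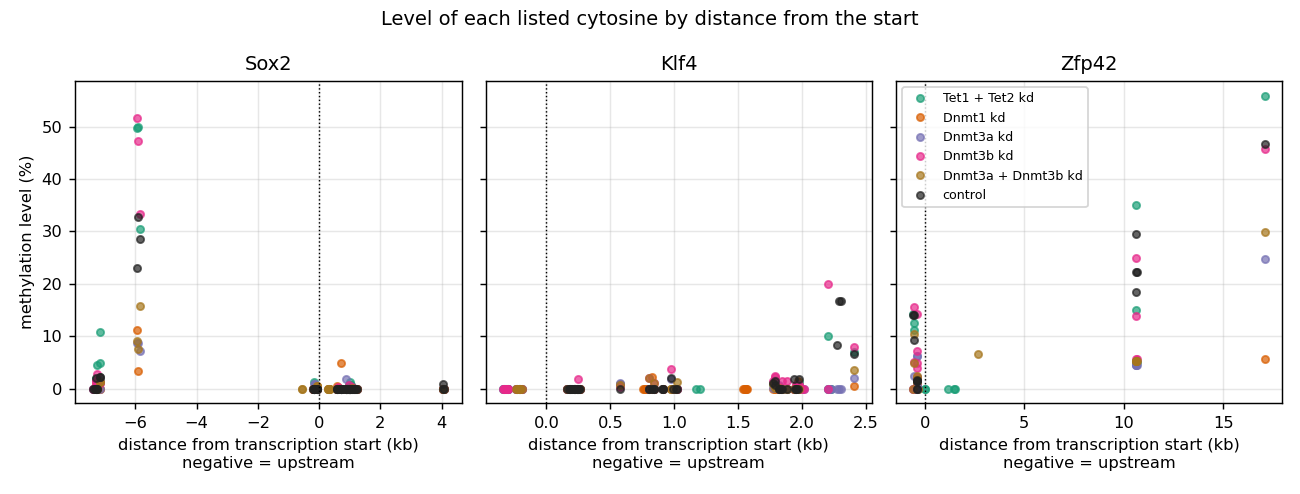
Level (%) of each listed cytosine against its distance from the transcription start (kb, negative upstream, dotted line at 0) at Sox2, Klf4 and Zfp42, with libraries by colour. Values stay near 0 around the Sox2 and Klf4 starts, and the values above 20% stand almost 6 kb upstream at Sox2 and over 10 kb downstream at Zfp42.

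Nanog, whose product is the third core factor, offered 4 cytosines, away from its printed promoter. The highest value in any library was 3.9%, in control, at 122652892, where Tet1 and Tet2 read 2.3%, Dnmt3b 1.3% and the other 3 libraries 0%. The 2 cytosines listed in Dnmt1 both read 0% there. The reading is too thin to describe the Nanog locus.

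Klf4, which encodes a naive-state factor, was close to unmethylated in all libraries. Over 36 shared cytosines the means were 0.369% in Tet1 and Tet2, 0.172% in Dnmt1, 0.197% in Dnmt3a, 0.803% in Dnmt3b, 0.283% in the double library and 0.425% in control. The promoter cytosines read 0% in the 4 libraries that listed them, Tet1 and Tet2, Dnmt3a, Dnmt3b and the double library, and were not listed in Dnmt1 or control. Of its 3 patches (55543373 to 55543573, 55544327 to 55544548 and 55545087 to 55545135 on chromosome 4), none averaged above 0.85% in any library. Single cytosines of higher level lay more than 1 kb downstream of the start, up to 20% in Dnmt3b and 16.7% in control, and none listed in control and a knockdown differed by 20 points.

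Esrrb, which encodes an orphan nuclear receptor of the naive circuit, is the most sampled window and held most of the cytosines past 20 points in 4 of the 5 knockdowns. Of its 83 cytosines listed in both libraries, 12 (14.5%) were higher in Tet1 and Tet2 by 20 points or more, against 2.58% over all autosomal cytosines, and these were 12 of the 15 at the 8 loci. Most of the 12 lay in short runs, at 87729793 to 87729831 and 87859082 to 87859188, where neighbours can come from the same reads. At the first run, chosen after its values were seen, Tet1 and Tet2 read 80% to 94.4%, control 42.9% to 63.3% and Dnmt3b 35.7% to 71.8%. Among cytosines listed in all 6 libraries, only 3 of 177 at the 8 loci were higher (1.69% against 1.53%). In Dnmt3b 12 of 78 (15.4%) were higher, against 1.74%, and these were 12 of 13. In Dnmt3a 10 of 86 (11.6%) were lower, against 7.99%, and these were 10 of 17. In Dnmt1 11 of 57 (19.3%) were lower, against 31.1%, and these were 11 of 19. In the double library 1 of 70 (1.43%) was lower, against 4.9%, and this was 1 of 4 at the 8 loci. There 0 Esrrb cytosines were higher, against 0.421%. Some of its patches were low: those at 87743946 to 87744069, 87762772 to 87762891, 87763511 to 87763556 and 87763692 to 87763735 averaged at most 7.7% in any library and 3.36% or less in control. Methylation stood at scattered cytosines and at other patches, whose distance from a start is not known. A cytosine at 87748065 read 93.4% in Tet1 and Tet2, 3.4% in Dnmt1, 90.7% in Dnmt3a, 92.9% in Dnmt3b, 85.2% in the double library and 93.2% in control. Its difference of -89.8 points was the largest of any cytosine in the 8 loci.

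An Esrrb patch at 87831690 to 87831840 had the libraries on the same sides of control as the upstream Sox2 patch. Its 4 cytosines, 2 on each strand, averaged 35.5% in Tet1 and Tet2, 11.7% in Dnmt1, 10.6% in Dnmt3a, 39.0% in Dnmt3b, 14.8% in the double library and 25.5% in control. All 4 were above control in Tet1 and Tet2 and in Dnmt3b, and all 4 were below it in the other 3 knockdowns. A patch at 87842921 to 87842951, with 3 cytosines on 1 strand, averaged 0% in Tet1 and Tet2, 0% in Dnmt1, 8.33% in Dnmt3a, 36.1% in Dnmt3b, 8.33% in the double library and 10.1% in control. There only Dnmt3b was above control at all 3, by a mean of 26.0 points, and Tet1 and Tet2 was below it at all 3, the other side from the patch before. These 3 are listed in all 6 libraries. They lie within 31 bp and can come from the same reads, so they need not be 3 separate readings. Over the 5 cytosines listed in the 5 libraries other than Dnmt1 (87842852 to 87842951), the Dnmt3b mean was 14.8 points above control, with 4 higher and 1 lower. Tet1 and Tet2 was below control at all 5. A patch at 87848808 to 87848925 read 11.8% in Tet1 and Tet2, 4.27% in Dnmt3a, 18.1% in Dnmt3b, 6.63% in the double library and 17.6% in control, with 1 of its 3 cytosines listed in Dnmt1, at 0.9%.

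Single Esrrb cytosines gave the largest difference of every knockdown except the double one, and such values are picked for size. The largest gain in Tet1 and Tet2 was at 87764101, with 86.3% against 29.3% in control, where Dnmt3b read 27% and the double library 22.9%. Neighbouring cytosines at 87764109 and 87764110 read 25.6% and 21.2% in Tet1 and Tet2, against 0% and 13% in control. The largest gain in Dnmt3b was at 87859082, with 66.7% against 19.2% in control, where Tet1 and Tet2 read 50% and Dnmt3a 4.2%. The 6 cytosines there, to 87859188, read 50% to 85.7% in Dnmt3b, 42.1% to 85% in Tet1 and Tet2, 4.2% to 33.3% in Dnmt3a and 17.1% to 51.4% in control. The 3 of them listed in Dnmt1 read 0% there. None was listed in the double library, and this run was chosen after its values were seen. The largest fall in Dnmt3a was at 87861283, with 30% against 64.3% in control, where Dnmt1 read 20.8% and Dnmt3b 91.7%. The largest fall at Esrrb in the double library was at 87763787, with 20% against 45.5% in control, the other libraries not listing it. The 1 Esrrb cytosine that was lower in Dnmt3b, 87729834, read 50% against 71.4% in control.

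Prdm14, which encodes the repressor of the de novo enzymes, had the most methylated patch of the 8 loci and several less methylated ones. The first, 13108696 to 13108737 on chromosome 1, held 6 cytosines on both strands and averaged 87.2% in Tet1 and Tet2, 16.9% in Dnmt1 (4 listed), 72.2% in Dnmt3a, 81.6% in Dnmt3b, 79.4% in the double library and 86.4% in control. All 6 were below control in Dnmt3a and in the double library, with mean differences of -14.2 and -7.02 points, and so were the 4 listed in Dnmt1, with a mean of -67.8 points. A cytosine at 13108855 read 76.6% in Tet1 and Tet2, 7% in Dnmt1, 51% in Dnmt3a, 67.3% in Dnmt3b, 46.3% in the double library and 78.2% in control, the largest fall at this locus in Dnmt3a (-27.2 points) and in the double library (-31.9 points). The largest in Dnmt1 was at 13108702, with 16.3% against 88.8% in control.

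The next Prdm14 patch, 13115201 to 13115462, was intermediate to low. It averaged 20.6% in Tet1 and Tet2, 5.61% in Dnmt3a, 22.2% in Dnmt3b, 10.96% in the double library and 17.3% in control over 8 cytosines, and 9.22% over the 5 listed in Dnmt1. Dnmt3a was below control at 7 of the 8. The stretch that followed, 13116381 to 13116985, held 3 patches whose means in control were 3.20%, 2.68% and 9.87%. Dnmt3a read 0.392%, 1.08% and 2.46% there and the double library 0.908%, 0.960% and 2.40%, while Tet1 and Tet2 read 5.43%, 6.44% and 10.4% and Dnmt3b 4.30%, 4.54% and 10.7%. Dnmt1 read 0.35% over 4 listed cytosines of the first and 2.40% over 4 of the third. In the second, with all 5 listed, its mean of 3.34% was above the 2.68% of control, although 3 of the 5 were lower.

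**Figure D4:**
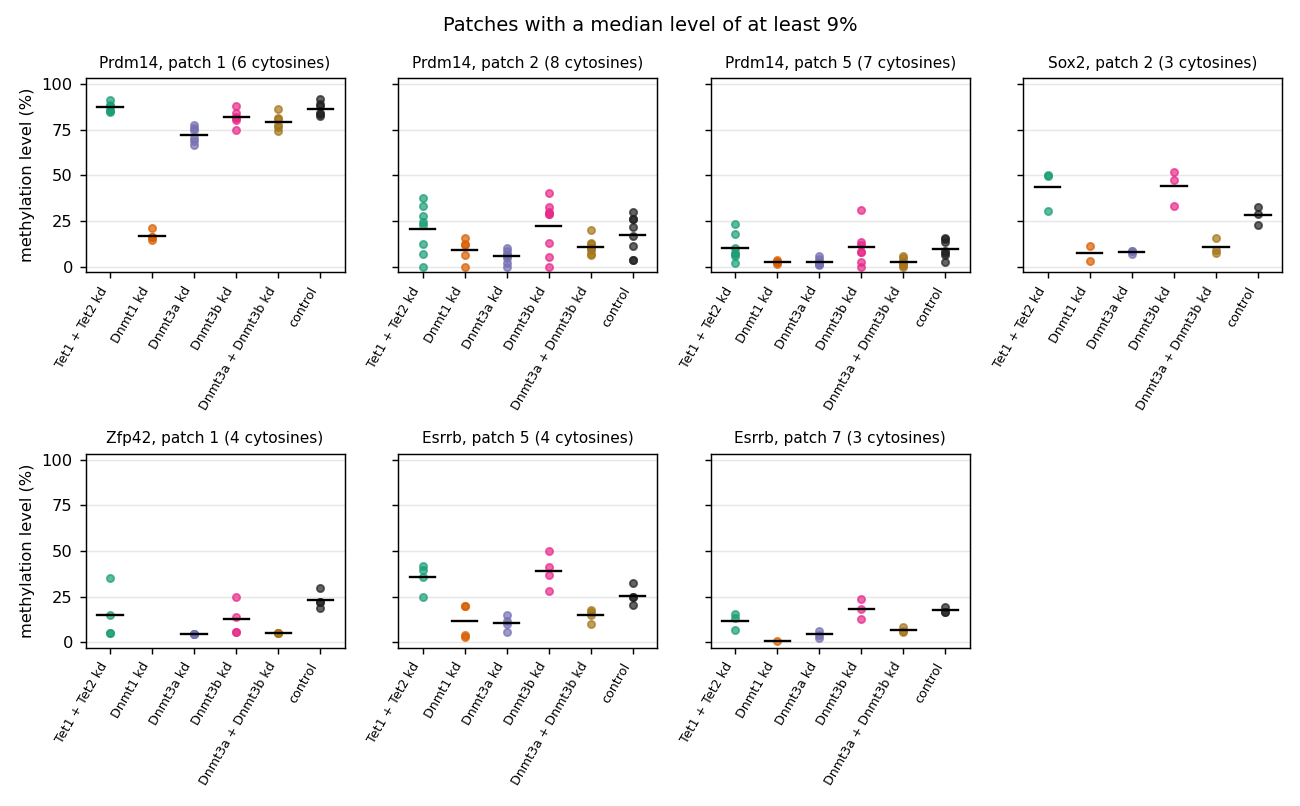
Level (%) of each cytosine (points) and their mean (line) in the 6 libraries, at the 7 patches whose median library mean was at least 9%. The means of the Dnmt3a and double libraries lie below that of control at all 7, and Tet1 and Tet2 and Dnmt3b points lie above control at Sox2 patch 2 and Esrrb patch 5.

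The plot of partly methylated patches uses cytosines listed in the 5 libraries other than Dnmt1, a set chosen after the data were seen because Dnmt1 lists fewer, and its level of 9% was also chosen then. Dnmt3a was below control in all 7, with mean differences between -7.41 and -20.0 points. The patch next below that level, at Esrrb from 87842852 to 87842951 (5 cytosines), went the other way in Dnmt3a, with 10.3% against 7.78% in control, and 3 of its 5 cytosines were higher. In Dnmt3b, 5 of the 7 were above control and the methylated Prdm14 patch and the distal Zfp42 patch were below it. Of those 5, the Esrrb patch at 87848808 to 87848925 was above by only 0.467 points. The Prdm14 patch at 13116857 to 13116985 was above by 0.786 points, although 5 of its 7 cytosines were lower.

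Zfp42, whose product marks the naive state, was low around its start and partly methylated beyond it. Its promoter held 2 listed cytosines, at 0% in the Tet1 and Tet2 library and not listed elsewhere. A patch at -400 to -367 bp from the start (44392730 to 44392763 on chromosome 8) averaged 1.93% in Tet1 and Tet2, 0.6% in Dnmt1, 0.3% in Dnmt3a, 3.7% in Dnmt3b, 1.93% in the double library and 1.53% in control. One at -565 to -529 bp (44392892 to 44392928) read 12.6% in Tet1 and Tet2, 0.8% in Dnmt3a, 6.83% in Dnmt3b, 5.1% in the double library and 12.4% in control, and was not listed in Dnmt1. A patch over 10 kb downstream of the start (44381712 to 44381752) read 15% in Tet1 and Tet2, 4.5% in Dnmt3a, 12.5% in Dnmt3b, 5.3% in the double library and 23.1% in control, and was not listed in Dnmt1. Its 4 cytosines lie within 41 bp on 1 strand and can come from the same reads. Each of them read 4.5% in Dnmt3a and 5.3% in the double library. Control was the highest library there, also above Tet1 and Tet2. The largest falls in Dnmt3a and in the double library were at its cytosine 44381748, with 4.5% and 5.3% against 29.6% in control. The farthest cytosine, 44375285, at 17078 bp, read 55.9% in Tet1 and Tet2, 5.6% in Dnmt1, 24.8% in Dnmt3a, 45.8% in Dnmt3b, 29.9% in the double library and 46.7% in control. The sign of the locus mean depended on the cytosines used: over the 4 shared ones Tet1 and Tet2 differed from control by 2.60 points and Dnmt3b by 1.40, but over the 13 listed in both libraries by -1.65 and -2.48. Dnmt3a was below control over either set, by -6.40 and -9.43 points.

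Dppa3, which encodes the maternal protein STELLA, had 13 listed cytosines, of which 6 were listed in the 5 libraries other than Dnmt1, 3 near-unmethylated and 3 methylated. The patch at 122583429 to 122583474 on chromosome 6 read 0% in Tet1 and Tet2, Dnmt1, Dnmt3a and Dnmt3b, 8.67% in the double library and 3.53% in control. At 122582517 the levels were 72.2% in Tet1 and Tet2, 45.8% in Dnmt3a, 37.5% in Dnmt3b, 42.9% in the double library and 22.5% in control. Control was the lowest of the 5 libraries there, and this was the only cytosine of the 8 loci at which Dnmt3a or the double library was 20 points above control. The nearest of the others, 122582563, read 88.9% in Tet1 and Tet2, 81.2% in Dnmt3a, 89.5% in Dnmt3b, 71.4% in the double library and 87.5% in control, without that pattern. The third, 122582847, read 76.9% in Tet1 and Tet2, 48.8% in Dnmt3a, 52.5% in Dnmt3b, 45.5% in the double library and 54.2% in control. These last 2 were chosen after their values were seen, and none of the 3 was listed in Dnmt1. A run at 122578732, 122578749 and 122578771, also chosen afterwards, was listed in 4 libraries and read 14.3%, 35.7% and 28.6% in Dnmt3b, 0%, 8.3% and 7.1% in Dnmt3a, 0%, 11.1% and 5.6% in the double library and 0%, 20% and 9.1% in control. Dnmt3b was above control at all 3. With these, the Dnmt3b mean was 6.02 points above control over 9 cytosines, against 0.783 over the 6. The locus mean therefore turned with the set: Tet1 and Tet2 minus control was -3.53 points over the 3 cytosines shared by all 6 libraries and 10.5 over the 6 listed in both.

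Counted over all loci, cytosines past 20 points were read against the share over all autosomal cytosines listed in both libraries. For Tet1 and Tet2, 15 of 249 (6.02%) were higher, against 2.58% over the autosomes (3 of 177, 1.69% against 1.53%, among cytosines listed in all 6 libraries), and 0 were lower, against 0.889%. For Dnmt3b, 13 of 255 (5.10%) were higher, against 1.74%, and 1 was lower, against 1.22%. Both higher shares rest mostly on 1 locus, Esrrb, whose neighbouring cytosines can come from the same reads. For Dnmt1, 19 of 196 (9.69%) were lower, against 31.1%, and 0 were higher, against 0.0115%. For Dnmt3a, 17 of 269 (6.32%) were lower, against 7.99%, and 1 was higher, against 0.293%. For the double knockdown, 4 of 241 (1.66%) were lower, against 4.9%, and 1 was higher, against 0.421%. No test of these shares was made, and every comparison uses the same control library.

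**Figure D5:**
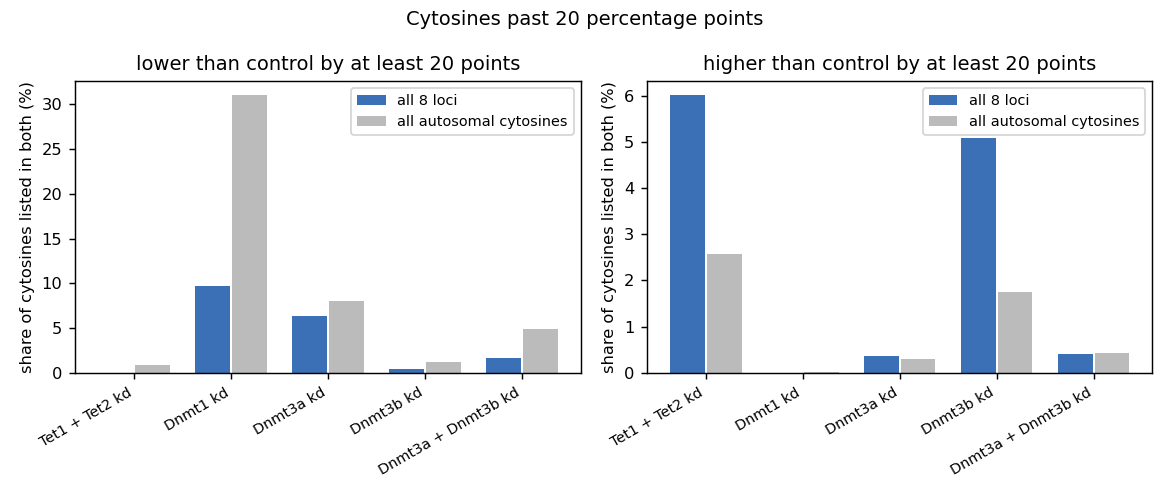
Share (%) of cytosines listed in both libraries that were lower (left) or higher (right) than control by at least 20 percentage points, for the 8 loci and for all autosomal cytosines. The loci stand below the autosomes for Dnmt1, with 9.69% against 31.1%, and above them for higher levels in Tet1 and Tet2, with 6.02% against 2.58%, and in Dnmt3b.

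Because the loci held few methylated cytosines, they were also compared within a class. The 11 intermediate cytosines averaged 61.3% in Tet1 and Tet2, 10.96% in Dnmt1, 35.5% in Dnmt3a, 59.4% in Dnmt3b, 38.7% in the double library and 52.0% in control. Their differences from control, in points, were 9.30 for Tet1 and Tet2, -41.1 for Dnmt1, -16.5 for Dnmt3a, 7.36 for Dnmt3b and -13.4 for the double knockdown. For the 57525 intermediate cytosines of the autosomes they were 5.23 for Tet1 and Tet2, -53.3 for Dnmt1, -15.3 for Dnmt3a, 1.47 for Dnmt3b and -11.03 for the double knockdown. That class averaged 64.0% in control, above the 52.0% of the loci, so the differences of the 2 sets start from different levels. All 11 at the loci were below control in Dnmt1, in Dnmt3a and in the double library, and 10 were above it in Tet1 and Tet2. In Dnmt3b 7 were above it and 4 below. Of the 57525 autosomal ones, 57430 were below control in Dnmt1, 53304 in Dnmt3a and 49942 in the double library. In Tet1 and Tet2 41222 of them were above it, and in Dnmt3b 32305 were above and 24884 below. The directions at the loci were thus those of most intermediate cytosines on the autosomes. The 5 intermediate Esrrb cytosines differed by 13.6 points in Dnmt3b and the 4 at Prdm14 by -0.2 points. The 4 high cytosines averaged 92.2% in Tet1 and Tet2, 17.6% in Dnmt1, 83.8% in Dnmt3a, 89.0% in Dnmt3b, 83.3% in the double library and 90.4% in control.

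The error of a single cytosine can be judged from CpGs read on both strands, which are other molecules of the same library. At the 8 loci control had 13 such CpGs, with a median absolute difference of 3.8 points, and 12 agreed within 10 points. Tet1 and Tet2 had 12, of which 9 agreed within 10 points and 1 differed by 32.3. Over the autosomes the strands of intermediate CpGs differed in control by an SD of 17.7 points. A difference of 20 points at a single cytosine is therefore little more than that SD.

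Promoters of other pluripotency genes also read near 0 where they could be placed. In a list of 25 such genes, 15 had a promoter sequence and 4 were placed with at least 3 cytosines in all libraries: Stat3, which relays LIF signals, Mybl2, a cell-cycle transcription factor, Tet2, itself a knockdown target here, and Fgf4, a target of POU5F1 and SOX2. Their highest mean in any library was 0.329%, at Fgf4 in Tet1 and Tet2, against 0% in control, and none differed from control by 10 points. Of all 5388 promoters placed on at least 5 cytosines, 5121 averaged below 5% in control. A low level such as that of Sox2 was thus common among the promoters read. The Klf4 promoter cytosines were not listed in control and cannot be set against this share.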

How the data were processed

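RRBS of genomic DNA was deposited as 1 table per library. Its values are methylation fractions from 0 to 1 for single CpG cytosines on 1 strand, rounded by the authors to 3 decimals, with 5 bases of context. CASAVA 1.8, Bismark 0.10.1 and the mm9 build are named, with no role, per the submitters' processing notes. Coverage is not in the tables, so depth per cytosine is unknown, no interval can be given, and thinly and deeply read cytosines weigh alike. Libraries list 445016 to 604227 cytosines, and the 67 to 135 without a level were left out. The title of 1 sample names Dnmt1a, and its treatment label, Dnmt1, was followed.

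Fractions were turned into percent and joined by position, context and strand (Python 3.11.15, NumPy 2.4.6, pandas 2.3.3), and figures were drawn in matplotlib 3.10.9. Bisulfite leaves methylated and hydroxymethylated cytosines unconverted, and both read as methylated. Differences are knockdown minus control, called at 20 percentage points. Every locus and, up to 6 per locus, every patch was named, beyond that the 3 highest and the 3 that differed most, with the cytosine of largest difference per locus and knockdown. RefSeq promoters were placed by matching strand, context and spacing of cytosines, not by converting coordinates. After the data were seen, the rule was changed to at least 5 cytosines, since 26.8% of placements on 3 lay away from their neighbours, and for the 8 genes to at least 2 within the window with at most 1 mismatch. Placement on at least 5 cytosines was tested on simulated data, with promoters planted as exact matches. The calls were checked only on control values lowered by a set amount without noise. That check had a fixed outcome and cannot show how often a call is false. The placement rule for the 8 genes was not tested. Under it Zfp42 was placed on 2 cytosines, and Klf4 with 7 of 8 contexts matching. Alternatives were other thresholds, windows, cytosine sets and merged strands. The loci, lists and thresholds were chosen with earlier results of these data known.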

Additional observations from a re-analysis of the deposited data

How the results depend on the processing

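With 1 library per group, no replicate could be left out, and a mean difference was taken as unchanged when it moved by under 2 percentage points, a loose margin for means of that size. No paired analysis was possible because each group has 1 library. A coverage minimum was not run, since the tables hold no coverage. Mean differences over the 8 loci kept their direction under all alternatives. Over the 15 cytosines with a median of at least 20%, a set without those near 0, they were larger: 7.31 points for Tet1 and Tet2, -49.5 for Dnmt1, -13.9 for Dnmt3a, 5.02 for Dnmt3b and -11.7 for the double knockdown. With each locus weighted equally the Tet1 and Tet2 value was 0.423 and the Dnmt3b value 0.346, and over cytosines listed in control and the knockdown the Tet1 and Tet2 value was 2.61. Of 207 alternative values for single loci, 161 moved by less than 2 points and 46 by more. In 16 of the 207 the sign differed from the reported one, at Dppa3, Zfp42, Pou5f1 and Prdm14, each between values under 20 points.

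Over cytosines listed in control and the knockdown, Dppa3 differed by 10.5 points in Tet1 and Tet2, -1.41 in Dnmt3a, 6.02 in Dnmt3b and -0.156 in the double knockdown. Zfp42 differed by -1.65 in Tet1 and Tet2, -9.43 in Dnmt3a, -2.48 in Dnmt3b and -9.9 in the double knockdown. Esrrb differed by 5.65 in Tet1 and Tet2, -13.8 in Dnmt1 and -6.37 in Dnmt3a, and Prdm14 by -7.50 in Dnmt3a and -5.45 in the double knockdown. Over cytosines listed in the 5 libraries other than Dnmt1, the Tet1 and Tet2 value at Dppa3 and the double knockdown values at Prdm14 and Zfp42 were those just given. Dppa3 then differed by 0.167 in Dnmt3a, 0.783 in Dnmt3b and 1.83 in the double knockdown, Zfp42 by -1.96 in Tet1 and Tet2, -12.3 in Dnmt3a and -4.87 in Dnmt3b, and Esrrb by -5.84 in Dnmt3a. At a median of at least 20%, Esrrb (7 cytosines) differed by 9.59 in Tet1 and Tet2, -45.7 in Dnmt1, -10.1 in Dnmt3a, 9.07 in Dnmt3b and -8.39 in the double knockdown. Prdm14 (6) differed by -58.8 in Dnmt1, -15.2 in Dnmt3a and -12.4 in the double knockdown. The 1 such cytosine of Sox2 differed by 17.2 in Tet1 and Tet2, -29.5 in Dnmt1, -24.1 in Dnmt3a, 14.4 in Dnmt3b and -25.3 in the double knockdown, and that of Zfp42 by 9.2, -41.1, -21.9, -0.9 and -16.8 in the same libraries. In windows narrower by 2 kb on each side, Zfp42 differed by 0.4 in Tet1 and Tet2 and in the double knockdown, -0.933 in Dnmt1 and -1.23 in Dnmt3a. With the strands of a CpG merged, Pou5f1 differed by 2.21 in Tet1 and Tet2. That value averages the 40% of Tet1 and Tet2 at 35651542, which control did not list, with its 7.7% at 35651543. Control entered there with the 13% of 35651543 alone. Beyond the different cytosines each alternative uses, the cause was not tested.

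Counts of cytosines past a threshold depended on it, and each is given with the share over all autosomal cytosines under the same rule. At 10 points, Tet1 and Tet2 had 9 of 249 lower (3.61% against 3.67%) and 30 higher (12.0% against 9.6%). Dnmt1 had 34 of 196 lower (17.3% against 34.0%). Dnmt3a had 51 of 269 lower (19.0% against 20.6%) and 3 higher (1.12% against 1.45%). Dnmt3b had 9 of 255 lower (3.53% against 5.02%) and 32 higher (12.5% against 6.86%), and the double knockdown 27 of 241 lower (11.2% against 14.9%). At 30 points, of the same numbers, Tet1 and Tet2 had 7 higher (2.81% against 0.691%), Dnmt3a 1 lower (0.372% against 2.6%) and 0 higher (against 0.0686%). Dnmt3b then had 0 lower (against 0.313%) and 8 higher (3.14% against 0.461%), and the double knockdown 1 lower (0.415% against 1.43%) and 0 higher (against 0.103%). Among the 177 cytosines listed in all 6 libraries, at 20 points, Tet1 and Tet2 had 3 higher (1.69% against 1.53%), Dnmt3a 4 lower (2.26% against 5.87%) and 0 higher (against 0.0829%). Dnmt3b had 0 lower (against 0.464%) and 5 higher (2.82% against 0.838%), and the double knockdown 2 lower (1.13% against 3.45%) and 0 higher (against 0.127%).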
